A study of Mus musculus with 6 samples.

Results

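Adhesion G protein-coupled receptors (adhesion GPCRs) were examined in RNA sequencing data from 6 mouse liver tumour cell lines. The genes were chosen by name, as every row of the deposited table whose symbol begins with Adgr, without Adgre1. This gave 27 of 53465 genes. Adgre1, which encodes the macrophage antigen F4/80, was counted among the macrophage markers instead. Celsr1, Celsr2 and Celsr3 belong to the same receptor family under another symbol and are described after the 27 genes.

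Adhesion GPCRs combine a long extracellular part, built from adhesion domains, with the membrane-spanning part of a G protein-coupled receptor. Most are cut by themselves at a site next to the membrane, and removal of the outer fragment can expose a short tethered peptide that switches the receptor on. They bind matrix proteins or surface proteins of neighbouring cells and signal mainly through G12/13 proteins to the small GTPase RhoA, or through Gs, Gi and Gq. Individual receptors are known from brain development, myelination, hearing, lung surfactant, blood vessels and leukocytes, and several mark endothelial or blood cells in the liver.

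The lines were grown from liver tumours of C57BL/6 mice, adult females at the time of injection. In those animals a Myc transposon and plasmids for transient Cas9 and a guide RNA had reached liver cells by tail vein injection, so all 6 lines carry the Myc transgene, which is driven by an EF1a promoter. The 3 lines labelled Myc_Utx (2A, 2B and 2D) derive from tumours deficient in Kdm6a, a histone H3K27 demethylase also called Utx, and the 3 lines labelled Myc_p53 (1, 2 and 3) from Trp53 knockout tumours that serve as the reference. The study describes the 3 lines of a group as independent. No line was wild type at both loci, so an effect of losing Kdm6a and an effect of losing Trp53 cannot be told apart. The cultures were passaged until no other cell type was seen, and whether any line is a single clone is not given in the sources used here.

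Total counts ran from 4656103 to 6937497 per library. Trp53 had 1475, 1578 and 1239 counts in Myc_Utx 2A, 2B and 2D against 205, 186 and 251 in Myc_p53 1, 2 and 3. Kdm6a had 199, 244 and 220 counts against 440, 348 and 298, and its normalised levels overlapped (log2 fold change -0.39, edgeR adjusted p = 0.243), so its RNA level does not check the Myc_Utx label. The methods of the study name the sequenced lines by a guide against Mll3 (Kmt2c), and Kmt2c had 349, 411 and 389 counts against 939, 625 and 851 (log2 fold change -0.73, adjusted p = 0.0289, but 0.118 with offsets for transcript length). Markers of hepatocytes were low: albumin had 4 to 26 counts per line, and the 11 hepatocyte markers together had 29.3 to 95.9 CPM (counts scaled to library size by edgeR's TMM method) in Myc_Utx lines and 76.9 to 1246 in Myc_p53 lines. Most of the high sums came from the keratins Krt8 and Krt18. They had 717 and 472 of the 1246 CPM in Myc_p53 replicate 1, and 446 and 315 of 848 CPM in replicate 3. Myc_p53 replicate 2 stood apart from replicates 1 and 3 in epithelial keratins, with 83 counts of Krt8 against 4537 and 3130. Myc_Utx 2D had 0 counts of Krt8. Fits without single lines are therefore also given for the receptor and pathway genes past the threshold and for some of the others.

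The receptor genes that turned out lower in Myc_Utx lines, and Adgra3, which was higher, differ from each other in the sequence before their start sites. RefSeq windows of 250 bases before a start (GRCm38.p6) were found for 20 of the 27 genes, and those of 4 lower genes and of Adgra3 are shown because these genes carry the comparison. Adgre5 and Adgra2 are not among the 20 genes with a window. CG dinucleotides, the sites of DNA methylation in mammals, are in capitals.
Adgrg2, chrX:160390440-160390689, plus strand: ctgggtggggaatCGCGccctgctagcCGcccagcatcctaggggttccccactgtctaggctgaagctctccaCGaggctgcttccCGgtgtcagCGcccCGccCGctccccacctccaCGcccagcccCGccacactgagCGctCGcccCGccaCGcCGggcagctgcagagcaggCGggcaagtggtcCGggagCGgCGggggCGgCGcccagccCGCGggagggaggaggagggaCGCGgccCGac
Adgrg1, chr8:94984149-94984398, plus strand: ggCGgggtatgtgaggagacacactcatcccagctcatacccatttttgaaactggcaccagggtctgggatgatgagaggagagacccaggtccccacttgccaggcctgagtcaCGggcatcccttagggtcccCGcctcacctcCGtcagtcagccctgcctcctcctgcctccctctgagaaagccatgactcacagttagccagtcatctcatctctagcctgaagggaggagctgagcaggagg
Adgrv1, chr13:81633145-81633394, minus strand: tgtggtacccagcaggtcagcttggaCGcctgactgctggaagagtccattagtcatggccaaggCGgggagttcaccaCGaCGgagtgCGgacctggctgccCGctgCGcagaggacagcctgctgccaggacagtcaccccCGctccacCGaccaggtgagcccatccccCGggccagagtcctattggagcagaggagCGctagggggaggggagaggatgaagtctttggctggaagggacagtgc
Adgrf5, chr17:43360181-43360430, plus strand: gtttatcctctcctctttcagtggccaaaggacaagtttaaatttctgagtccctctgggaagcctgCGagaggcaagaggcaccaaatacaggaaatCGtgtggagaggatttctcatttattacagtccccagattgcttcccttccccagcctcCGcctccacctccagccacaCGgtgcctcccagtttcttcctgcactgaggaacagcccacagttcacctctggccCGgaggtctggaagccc
Adgra3, chr5:50058997-50059246, minus strand: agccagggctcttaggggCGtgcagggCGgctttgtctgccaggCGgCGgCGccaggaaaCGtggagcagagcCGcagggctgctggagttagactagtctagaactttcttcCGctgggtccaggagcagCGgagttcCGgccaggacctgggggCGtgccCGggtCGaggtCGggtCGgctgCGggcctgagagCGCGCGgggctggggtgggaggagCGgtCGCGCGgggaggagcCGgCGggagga

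The window of Adgrg2 holds 26 CG and that of Adgra3 25, against a median of 6 (interquartile range 2 to 16) over all 32851 promoter windows of the same length. The Adgrv1 window holds 11 CG. In contrast, both windows of Adgrg1 hold 4 CG and those of Adgrf5 hold 5 and 7. Of 4 motifs searched on both strands, the GC box (GGGCGG) occurs 3 times before Adgrg2 and once before Adgra3, and it is present in 32.74% of all windows. The CCAAT box (CCAAT) occurs once in the Adgrv1 window and once in the second Adgrf5 window, and in 33.85% of all windows. The TATA box (TATAAA, in 12.37% of all windows) and the E box (CACGTG, in 6.02%) occur in none of the 5 sequences shown. No methylation or binding data were used here, so these letters are a description of the windows.

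Most of the family was barely present in these cells. Of the 27 genes, 3 had 0 counts in all 6 lines (Adgrb3, Adgrg4 and Adgrl4), 11 had at most 3 counts in every line (these 3 among them), and 11 passed the filter on low counts and were tested. A count of 0 allows up to 3 counts, which is 0.428 to 0.668 normalised CPM depending on the library, and these limits cover counting error only. The 27 genes together had 1910, 2316 and 1528 counts in Myc_Utx 2A, 2B and 2D and 2674, 2510 and 4371 in Myc_p53 1, 2 and 3. As normalised levels these sums were 385 ± 46.8 CPM (SD, n = 3) and 504 ± 106 CPM (SD, n = 3), and the groups overlapped. Myc_p53 replicate 3 had the largest sum and lacked reads of the fewest members, with 5 genes at 0 against 9 to 16 in the other lines.

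Adgra3, Adgrl1 and Adgrl2 supplied most of these reads. Their joint share of the family's counts was 82.5%, 72.8% and 88.5% in Myc_Utx 2A, 2B and 2D and 60.8%, 72.0% and 49.3% in Myc_p53 1, 2 and 3. Per kilobase of transcript, which allows genes to be compared, Adgra3 had the highest level in Myc_Utx lines (13.6 ± 1.40 CPM per kb, SD, n = 3), followed by Adgrl1 (10.5 ± 1.09), Adgrl2 (7.76 ± 0.636), Adgrg6 (4.46 ± 1.79) and Adgra2 (1.41 ± 1.68). The remaining 22 genes were below 0.5 CPM per kb in this group. In Myc_p53 lines the order was Adgra2 (12.6 ± 7.84), Adgrl1 (11.9 ± 1.54), Adgra3 (9.29 ± 1.01), Adgrl2 (8.61 ± 3.67), Adgrg1 (7.70 ± 6.09), Adgre5 (5.63 ± 1.91), Adgrg2 (2.30 ± 0.288), Adgrf5 (2.10 ± 2.75) and Adgrg6 (1.74 ± 0.589). Neighbours in this order differed by less than the larger of their SDs, except Adgrl1 from Adgra3 and Adgre5 from Adgrg2.

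**Figure D1:**
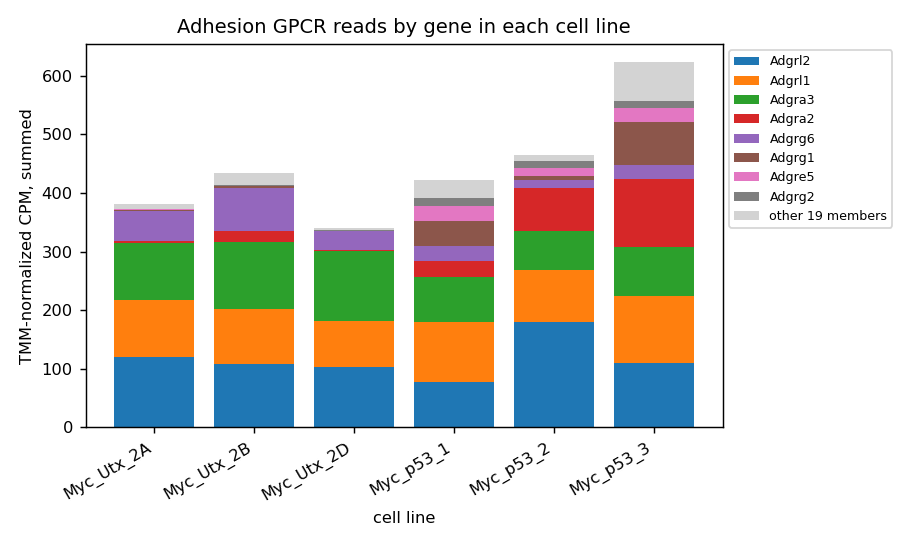
Stacked bars of normalised CPM for the 27 adhesion GPCR genes in each of the 6 cell lines, with 8 genes in colour and the other 19 in light grey. Adgrl2, Adgrl1 and Adgra3 fill most of each Myc_Utx bar, whereas Adgra2, Adgrg1, Adgre5 and Adgrg2 are visible mainly in Myc_p53 bars.

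The genotypes were compared with edgeR's quasi-likelihood F test over all 11510 genes that passed the filter, with Benjamini-Hochberg adjustment. A negative log2 fold change means a lower level in Myc_Utx lines. Of the 11 adhesion GPCR genes tested, 5 were lower in Myc_Utx lines at an adjusted p under 0.05 (Adgrg2, Adgre5, Adgrv1, Adgrg1 and Adgrf5), where 7.69% of all tested genes were, and 1 was higher (Adgra3), where 6.99% were. The groups did not overlap for 6 genes with lower and 2 with higher levels in Myc_Utx lines, while 20.9% of all tested genes were lower and 21.1% higher in this sense. These counts cannot be read as an excess. The filter asked for 1.84 CPM in at least 3 lines, and all 5 lower genes reached it in every Myc_p53 line but in at most 1 Myc_Utx line, so they entered the test through the group in which they were high. The median log2 fold change was -3.13 over the 11 genes and -0.01 over all tested genes, and the first value carries the same selection. An exact permutation test of 3 lines against 3 cannot fall below p = 0.1 (two-sided), so single genes rest on the edgeR model, which shares variance information between genes.

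**Figure D2:**
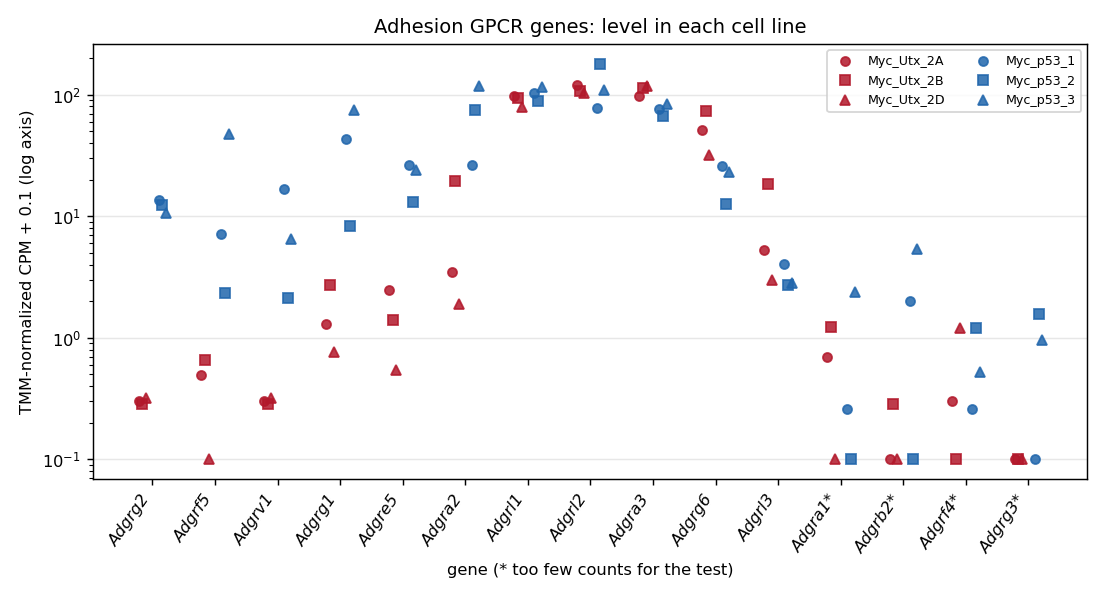
Normalised CPM plus 0.1 (log axis) of the 11 tested adhesion GPCR genes and of the 4 untested ones with at least 10 counts in total (asterisks), one point per cell line, Myc_Utx in red and Myc_p53 in blue. Red points of Adgrg2 and Adgrv1 lie near 0.3, the level of 1 count plus 0.1, and every blue point of these genes is above 2.

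Subfamily G held the gene with the smallest adjusted p of the family, Adgrg2, and members on both sides of 0. Adgrg2 (ENSMUSG00000031298, chromosome X, 160390690 to 160498070, plus strand of GRCm38) encodes a receptor best known from the efferent ducts of the male reproductive tract, where it takes part in fluid reabsorption. It had 1 count in each Myc_Utx line and 86, 66 and 74 counts in Myc_p53 1, 2 and 3. The Myc_p53 lines were close to each other, at 12.1 ± 1.52 CPM (SD, n = 3), and the group ranges were far apart. The pooled counts, 226 against 3, gave a ratio of 59.7 after scaling, with an exact 95% counting interval of 20.2 to 292. This interval leaves out the spread between lines. In the edgeR fit Adgrg2 had a log2 fold change of -5.76 (SE 0.35, adjusted p = 0.00511). With so few counts in Myc_Utx lines, the fitted size depends on edgeR's prior count. Adgrg2 passed the threshold in 5 of the 6 fits that left out 1 line, and without Myc_Utx 2A, a fit in which 3 higher and 1 lower of 12064 tested genes passed, its adjusted p was 0.0518.

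Adgrg1 (ENSMUSG00000031785, chromosome 8, 94974751 to 95014217, plus strand), also known as GPR56, is a receptor for collagen III that signals through G12/13 and is needed for the layering of the cerebral cortex. It had 6, 14 and 3 counts in Myc_Utx 2A, 2B and 2D and 272, 44 and 520 in Myc_p53 1, 2 and 3. All Myc_p53 lines were above all Myc_Utx lines, but they spread widely among themselves, from 8.16 to 74.1 CPM. Adgrg1 had a log2 fold change of -4.76 (SE 0.93, adjusted p = 0.0274). The call was kept only without Myc_p53 replicate 2 (adjusted p = 0.0109). It was lost without Myc_Utx 2A (0.0927), 2B (0.0765, log2 fold change -5.42) or 2D (0.101), without Myc_p53 replicate 1 (0.0523) and without replicate 3 (0.0716, log2 fold change -4.07).

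Adgrg1 lies between Adgrg5 and Adgrg3 in one cluster of receptor genes on chromosome 8, with 31.5 kb to Adgrg5 and 3.5 kb to Adgrg3. Both neighbours are known mainly from leukocytes, Adgrg3 from granulocytes. Neither was tested. Adgrg3 (chromosome 8, 95017692 to 95045250) had 0 counts in the 3 Myc_Utx lines and 0, 8 and 6 in Myc_p53 1, 2 and 3, and Adgrg5 had 1 count in Myc_p53 replicate 3 and none elsewhere. The line with the second highest Adgrg1 count, Myc_p53 replicate 1, had no read of either neighbour.

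Adgrg6 (ENSMUSG00000039116, chromosome 10, 14402583 to 14545179, minus strand), or GPR126, is the receptor that starts myelination in Schwann cells and binds collagen IV, laminin-211 and the prion protein. It had 258, 395 and 143 counts in Myc_Utx 2A, 2B and 2D and 162, 68 and 163 in Myc_p53 1, 2 and 3. Once scaled, every Myc_Utx line was above every Myc_p53 line, with 52.4 ± 21.1 against 20.5 ± 6.92 CPM (SD, n = 3 each). The log2 fold change of 1.35 (SE 0.39, 95% interval 0.42 to 2.29) did not pass the threshold (adjusted p = 0.0621). It passed with offsets for transcript length (1.55, adjusted p = 0.0495), with no filter on low counts (adjusted p = 0.0464) and with DESeq2 (adjusted p = 0.00862). Adgrg7, known from the intestine, had 5, 2 and 0 counts in Myc_Utx lines and 0, 0 and 2 in Myc_p53 lines. The summed level of the G members overlapped between groups, at 54.6 ± 22.2 CPM in Myc_Utx and 75.3 ± 37.8 CPM in Myc_p53 lines (SD, n = 3 each).

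Subfamily E includes receptors known from leukocytes. Adgre5 (ENSMUSG00000002885, chromosome 8, 83723251 to 83741326, minus strand) encodes CD97, which binds CD55 and Thy1 on other cells. It had 12, 7 and 2 counts in Myc_Utx 2A, 2B and 2D and 167, 70 and 169 in Myc_p53 1, 2 and 3. The lowest Myc_p53 line, replicate 2, was still well above the highest Myc_Utx line, and the levels were 1.38 ± 0.976 against 21.2 ± 7.18 CPM (SD, n = 3 each). Its log2 fold change was -3.90 (SE 0.58, adjusted p = 0.0175). It kept its direction in every fit, and lost the threshold without Myc_Utx 2A (adjusted p = 0.0614, log2 fold change -4.51), 2B (0.0692) or 2D (0.0603) and without Myc_p53 replicate 3 (0.0576).

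Markers of macrophages, as a sum, were also higher in Myc_p53 lines. The 16 macrophage markers summed to 2.99 to 7.12 CPM in Myc_Utx lines and to 42.6 to 115.9 CPM in Myc_p53 lines, lowest in replicate 2, where Adgre5 was lowest as well. Of the 16, 14 had at most 3 counts in every Myc_Utx line and 9 had more than 3 in every Myc_p53 line, while Clec4f, which defines Kupffer cells, was at 0 in all 6 lines and the leukocyte antigen Ptprc (CD45) had 1 to 3 counts in Myc_p53 lines. The order of the other lines differed. Among Myc_Utx lines Adgre5 was highest in 2A (2.39 CPM), where the marker sum was lowest (2.99 CPM). In this group the marker sum mainly reflects 1 gene, Cd68, at 2.79, 3.93 and 5.34 CPM in 2A, 2B and 2D. Among Myc_p53 lines Adgre5 was highest in replicate 1 (26.4 CPM) and the marker sum in replicate 3 (115.9 CPM). By normalised level, 10 of the 16 markers were higher in every Myc_p53 line and 1, Cx3cr1, in every Myc_Utx line. Adgre1 had 0 counts in each Myc_Utx line and 5, 5 and 11 counts in Myc_p53 lines. Adgre4, the other E member, had 1 count in all. In bulk RNA, fewer cells of a type and less RNA per cell cannot be told apart, and the part of macrophage RNA in the Adgre5 values was not tested.

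The exons of Adgre5 also share 895 bases, 23.8% of their length, with Ddx39 on the opposite strand. Ddx39, an RNA helicase, had 1059, 1385 and 1144 counts in Myc_Utx lines and 1070, 761 and 1088 in Myc_p53 lines. Whether reads were counted by strand is not given in the sources used here, and without strand the reads of both genes cannot be told apart. Ddx39 was higher in Myc_Utx lines (log2 fold change 0.64, adjusted p = 0.0287), the direction opposite to Adgre5. Smaller overlaps with opposite-strand genes touch Adgrl1 (12.9% of exon bases, Gm10644, at most 7 counts per line), Adgrl3 (8.9%, Gm16054, at most 1 count), Adgrg6 (3.6%, Gm46212, 2 to 11 counts), Adgrg2 (2.6%, Gm15241, at most 1 count) and Adgra2 (1.3%, Brf2, 72 to 115 counts).

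In subfamily F, Adgrf5 stood alone above a near-silent group. Adgrf5 (ENSMUSG00000056492, chromosome 17, 43360451 to 43459557, plus strand), or GPR116, limits surfactant in the lung alveolus and is also found on endothelial cells. It had 2, 3 and 0 counts in Myc_Utx 2A, 2B and 2D and 45, 12 and 332 in Myc_p53 1, 2 and 3. Replicate 3 alone supplied most of the reads, at 47.3 CPM against 2.22 in replicate 2. The pooled counts, 389 against 5, gave a ratio of 61.6 with an exact 95% counting interval of 26.2 to 191, which leaves out the spread between lines. The log2 fold change was -5.74 (SE 1.46, 95% interval -9.26 to -2.23, adjusted p = 0.0480).

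The Adgrf5 call was the least stable of the 5 lower genes. It was lost with offsets for transcript length (adjusted p = 0.0573), without Myc_Utx 2A (0.130), 2B (0.122, log2 fold change -6.35) or 2D (0.143), and without Myc_p53 replicate 1 (0.0620) or 3 (0.0933). Without replicate 3 the log2 fold change was -3.74. Endothelial markers mostly had few counts, and their sum mainly reflects 1 gene, Egfl7. Of the 12 endothelial markers, Emcn and Cldn5 were at 0 in all lines, 10 had at most 3 counts in every Myc_Utx line and 7 in every Myc_p53 line, and the list summed to 17.2 to 21.8 CPM in Myc_Utx lines and 8.13 to 17.4 in Myc_p53 lines, most of it from Egfl7. Esam was lower in every Myc_Utx line, at 0, 2 and 0 counts against 3, 4 and 3, and the normalised level of Egfl7 was higher. The endothelial receptor Adgrl4 had 0 counts in every line. The part of endothelial RNA in the Adgrf5 values was not tested.

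Adgrf5 has Adgrf1 as a neighbour at 35.7 kb, and Adgrf4 and Adgrf2 lie 16.7 kb apart further along chromosome 17. Adgrf4 had 1, 0 and 5 counts in Myc_Utx 2A, 2B and 2D and 1, 6 and 3 in Myc_p53 1, 2 and 3, so its levels overlapped. Adgrf2 had 0 counts in Myc_Utx lines and 1, 2 and 3 in Myc_p53 lines, values that stay within the limit of 3 counts in both groups. Adgrf1 had 2 counts in all and Adgrf3 had 1. The high Adgrf5 count of replicate 3 therefore had no counterpart in its neighbour Adgrf1, which had 1 count in that line.

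Adgrv1 (ENSMUSG00000069170, chromosome 13, 81095068 to 81633154, minus strand), the largest receptor of the family, forms links between the stereocilia of inner ear hair cells. Its annotated exons add up to 24878 bases. It had 1 count in each Myc_Utx line and 106, 11 and 45 counts in Myc_p53 1, 2 and 3. The groups did not overlap, while the Myc_p53 lines ranged from 2.04 to 16.8 CPM. The pooled counts, 162 against 3, gave a ratio of 42.8 with an exact 95% counting interval of 14.4 to 210. This interval leaves out the spread between lines.

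The log2 fold change of Adgrv1 was -5.23 (SE 0.97, adjusted p = 0.0246). The threshold was passed without Myc_p53 replicate 1 (adjusted p = 0.0388, log2 fold change -4.26) and without replicate 2 (0.0138), but not without Myc_Utx 2A (0.0846), 2B (0.0864) or 2D (0.0948) or Myc_p53 replicate 3 (0.0637). Per kilobase, Adgrv1 had 0.338 ± 0.304 CPM per kb (SD, n = 3) in Myc_p53 lines, a lower level than any of the other 4 lower genes.

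In subfamily A, Adgra3 was higher in Myc_Utx lines, while Adgra2 lay in the opposite direction without passing the threshold. Adgra2 (ENSMUSG00000031486, chromosome 8, 27085583 to 27123436, plus strand), or GPR124, works with Reck as a co-receptor for Wnt7 in brain vessels. It had 17, 103 and 8 counts in Myc_Utx 2A, 2B and 2D and 167, 401 and 820 in Myc_p53 1, 2 and 3. Every Myc_p53 line was above every Myc_Utx line, but both groups spread widely, from 1.78 to 19.3 CPM and from 26.4 to 116.9 CPM. The log2 fold change of -3.13 (SE 0.95, 95% interval -5.43 to -0.84) did not pass the threshold (adjusted p = 0.0706), whereas it passed with DESeq2 (adjusted p = 0.00138) and with no filter on low counts (adjusted p = 0.0448). It passed in none of the 6 fits without single lines: the log2 fold change was -4.77 without Myc_Utx 2B (adjusted p = 0.0614) and between -3.54 and -2.61 in the others (adjusted p from 0.0702 to 0.175).

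Fibroblast and stellate cell markers differed strongly between single lines. The 10 markers summed to 134.5 to 389 CPM in Myc_Utx lines and to 32.1, 449 and 648 CPM in Myc_p53 1, 2 and 3. Pdgfrb supplied the largest part in Myc_Utx 2A, 2B and 2D (174, 272 and 115 CPM). In Myc_p53 replicate 3 the largest parts came from Col1a1 (236 CPM) and Acta2 (221 CPM), so the sums reflect different genes in different lines. Myc_Utx 2B, highest of its group for Adgra2, was highest of its group for this list, and Myc_p53 replicate 1, lowest of its group for Adgra2, was lowest for the list. Across the groups the order differed. Myc_p53 replicate 1 had the lowest list sum of all lines (32.1 CPM) but more Adgra2 (26.4 CPM) than any Myc_Utx line. The part of these markers in the Adgra2 values was not tested.

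Adgra3 (ENSMUSG00000029090, chromosome 5, 49959956 to 50059006, minus strand), or GPR125, has been linked to planar cell polarity and marks spermatogonial progenitors. It had 488, 611 and 534 counts in Myc_Utx 2A, 2B and 2D and 484, 360 and 582 in Myc_p53 1, 2 and 3. Once scaled to library size, the groups separated without overlap, at 110.2 ± 11.4 against 75.4 ± 8.18 CPM (SD, n = 3 each), a difference that was larger than the spread within either group. This gave a log2 fold change of 0.55 (SE 0.14, 95% interval 0.21 to 0.88, adjusted p = 0.0477), a ratio of 1.46.

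This call lay at the threshold. It was lost in every fit that left out 1 line, with adjusted p from 0.0641 without Myc_p53 replicate 2 and 0.0810 without Myc_Utx 2A to 0.143 without Myc_Utx 2D, and at 0.0854 and 0.0878 without Myc_p53 replicates 1 and 3 and 0.132 without Myc_Utx 2B. It was also lost with no filter on low counts (0.0643), with at least 10 counts in every line (0.0545), with DESeq2 size factors (0.0511) and with total counts (0.0616). With transcript length offsets (log2 fold change 0.69, adjusted p = 0.0348) and with DESeq2 (0.55, adjusted p = 0.0147) Adgra3 still passed. The third A member, Adgra1 (chromosome 7, 139834174 to 139878088), which is known from the brain, was not tested and had 3, 6 and 0 counts in Myc_Utx lines and 1, 0 and 16 in Myc_p53 lines.

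Subfamily L holds the latrophilins, receptors for teneurins and FLRT proteins at synapses and other cell contacts, and none of its tested members passed the threshold. Adgrl1 (ENSMUSG00000013033, chromosome 8, 83900105 to 83941954), the receptor for the spider toxin latrotoxin, had 485, 501 and 356 counts in Myc_Utx 2A, 2B and 2D and 649, 477 and 805 in Myc_p53 1, 2 and 3. Its normalised levels, 89.9 ± 9.35 and 101.9 ± 13.2 CPM (SD, n = 3 each), overlapped, with a log2 fold change of -0.18 (95% interval -0.53 to 0.17, adjusted p = 0.415). Adgrl2 (ENSMUSG00000028184, chromosome 3, 148815583 to 148990555) had 603, 573 and 462 counts against 492, 969 and 768. Its log2 fold change was -0.15 (95% interval -0.86 to 0.56, adjusted p = 0.745), and its direction turned without Myc_p53 replicate 2 (0.24) and with offsets for transcript length (0.08). Neither interval shows equal levels, and the wider one, that of Adgrl2, goes with 1 high line, Myc_p53 replicate 2, at 179.6 CPM.

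Adgrl3 (ENSMUSG00000037605, chromosome 5, 81020138 to 81825133), a latrophilin of neurons, had 26, 98 and 13 counts in Myc_Utx 2A, 2B and 2D and 25, 14 and 19 in Myc_p53 1, 2 and 3. Line 2B held most of the reads, the other lines overlapped, and the log2 fold change was 1.51 (95% interval -0.18 to 3.20, adjusted p = 0.179). Without Myc_Utx 2B it was 0.41 (adjusted p = 0.612). Adgrl1 lies 158.8 kb from Adgre5 on chromosome 8 and did not share its difference, since the levels of Adgrl1 overlapped between the groups.

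**Figure D3:**
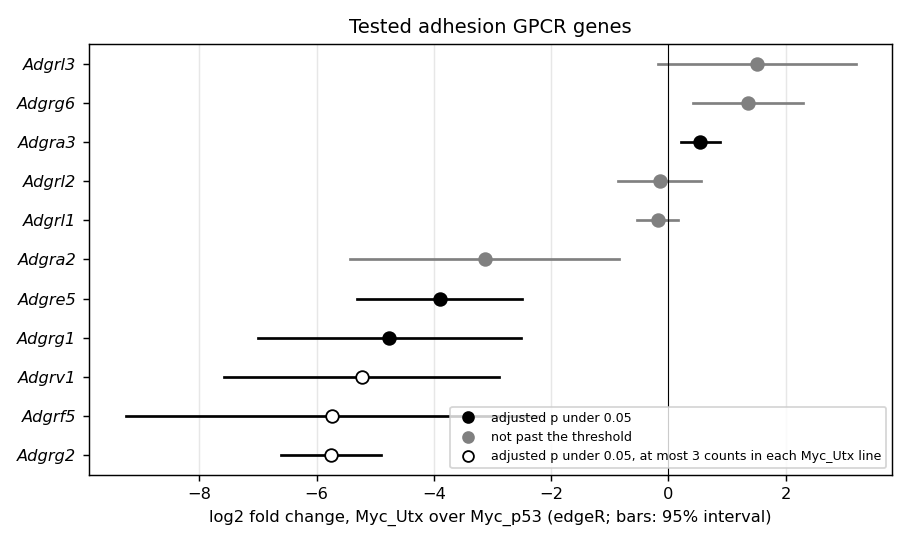
Log2 fold change (Myc_Utx over Myc_p53, edgeR) of the 11 tested adhesion GPCR genes with 95% intervals. Open circles mark genes with at most 3 counts in each Myc_Utx line, black an adjusted p under 0.05 and grey the other genes, and intervals are narrowest for Adgra3 and Adgrl1 and widest for Adgrf5.

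Subfamilies B and D were close to the limit of detection. Adgrb1, Adgrb2 and Adgrb3 are brain receptors, of which Adgrb1 (BAI1) also recognises phosphatidylserine on dying cells and binds Elmo1. Adgrb2 (chromosome 4, 129984870 to 130022633) had 0, 1 and 0 counts in Myc_Utx 2A, 2B and 2D and 12, 0 and 37 in Myc_p53 1, 2 and 3, so the groups overlapped at 0. It did not pass the filter with all 6 lines. With no filter its log2 fold change was -4.76 (adjusted p = 0.0994) and with DESeq2 -5.04 (adjusted p = 0.0834). It was also tested in 4 of the 6 fits without single lines, and passed the threshold in 1 of them, that without Myc_p53 replicate 2 (log2 fold change -5.34, adjusted p = 0.0289), against adjusted p of 0.238, 0.222 and 0.253 without Myc_Utx 2A, 2B and 2D. Adgrb1 had 2 counts in Myc_Utx 2A and none elsewhere. Adgrd1 had 3 counts, all in Myc_p53 replicate 3, and the pseudogene Adgrd2-ps had 0 counts in Myc_Utx lines and 2, 2 and 1 in Myc_p53 lines.

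The lower genes differed in how alike the Myc_p53 lines were. Over 11308 tested genes with more than 3 counts in every Myc_p53 line, the highest of the 3 lines had a median of 1.45 times the level of the lowest, and 10% of genes exceeded 3.25 times. The ratio was 1.29 for Adgrg2 and 2.03 for Adgre5, but 21.3 for Adgrf5, 9.09 for Adgrg1, 8.22 for Adgrv1 and 4.43 for Adgra2. Adgrf5, Adgrg1 and Adgra2 were highest in replicate 3, Adgrv1 in replicate 1. Adgrg1, Adgrv1 and Adgrf5 were all lowest in replicate 2, the line with low keratin counts.

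Markers of cholangiocytes, the epithelial cells of bile ducts, had their lowest sum in the same line. The 7 markers summed to 554 to 1463 CPM in Myc_Utx lines and to 1485, 168 and 1564 CPM in Myc_p53 1, 2 and 3. Spp1 supplied the largest part in each of the 6 lines, with 3064, 7275 and 2015 counts against 6310, 382 and 7143. Krt19 had 234, 25 and 129 counts in Myc_Utx 2A, 2B and 2D and 2088, 325 and 2468 in Myc_p53 1, 2 and 3. Krt7 had 1, 0 and 2 counts against 100, 3 and 459, and Cftr, a chloride channel, had 2, 0 and 0 against 162, 1 and 113. Both thus came to more than 3 counts in Myc_p53 replicates 1 and 3 and in no other line. The part of these markers, and of the composition of replicate 2, in the values of Adgrg1, Adgrv1 and Adgrf5 was not tested.

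The other receptors of the family, Celsr1, Celsr2 and Celsr3, carry cadherin repeats and set planar cell polarity. Celsr1 had 18, 100 and 20 counts in Myc_Utx 2A, 2B and 2D and 549, 74 and 341 in Myc_p53 1, 2 and 3. Celsr2 had 102, 109 and 78 counts against 1710, 46 and 1093. In both genes Myc_p53 replicate 2 fell within or below the Myc_Utx range, and the groups overlapped. The log2 fold changes were -2.47 (adjusted p = 0.101) for Celsr1 and -2.90 (adjusted p = 0.102) for Celsr2, and without replicate 2 Celsr2 reached -3.45 (adjusted p = 0.00960). DESeq2 called both over all 6 lines (adjusted p = 0.00993 and 0.0456). Celsr3, at 1, 0 and 0 against 1, 4 and 5 counts, was not tested.

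A list of 26 ligands and binding partners of adhesion GPCRs was read beside the receptors. Of these, 13 were tested, 1 was lower in Myc_Utx lines, 0 were higher and 12 did not pass. That is 7.69% lower, against 7.69% of all tested genes, so the share equals the background. At an unadjusted edgeR p under 0.05 there were 5 of the 13, beside 4026 of all 11510 tested genes. DESeq2 called 4 of 23, beside 1277 higher and 1572 lower of 24221 genes. The gene past the threshold was Tgm2, a transglutaminase that crosslinks matrix proteins and has been described as a partner of Adgrg1. Tgm2 had 98, 26 and 44 counts in Myc_Utx 2A, 2B and 2D and 1163, 160 and 1892 in Myc_p53 1, 2 and 3, without overlap. Its log2 fold change was -3.82 (SE 0.90, adjusted p = 0.0404). It passed in only 1 of the 6 fits without single lines, the one without Myc_p53 replicate 2 (adjusted p = 0.0163), and had adjusted p of 0.0870, 0.114 and 0.135 without Myc_Utx 2A, 2B and 2D and 0.0746 and 0.104 without Myc_p53 replicates 1 and 3. Its log2 fold change ranged over these fits from -4.45 without Myc_Utx 2A to -3.23 without Myc_p53 replicate 3.

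The other ligands that bear on the receptors above did not pass. Col3a1, the collagen III ligand of Adgrg1, had 8677, 12288 and 11488 counts in Myc_Utx lines and 65, 14680 and 518 in Myc_p53 lines, so it was high in all Myc_Utx lines and in Myc_p53 replicate 2 (log2 fold change 1.23, adjusted p = 0.620). Leaving out replicate 2 gave a log2 fold change of 5.71 (adjusted p = 0.0230). The 4 lines with high Col3a1 were the 4 lines with the lowest Adgrg1 counts, a description over 6 lines with no test. Col4a1 and Col4a2, the collagen IV chains bound by Adgrg6, were lower in every Myc_Utx line, with log2 fold changes of -4.45 (adjusted p = 0.0792) and -4.06 (adjusted p = 0.0673), and Cd55, a ligand of Adgre5, had at most 13 counts in any line. With no filter on low counts Col4a1 (adjusted p = 0.0493) and Col4a2 (adjusted p = 0.0403) passed. With DESeq2 Col4a2 passed (adjusted p = 0.00988), while Col4a1 and Col3a1 were given no p-value. Myc_p53 replicate 3 had 5005 counts of Col4a1 against 591 and 441 in replicates 1 and 2. Without replicate 3 the edgeR log2 fold changes were -2.70 for Col4a1 (adjusted p = 0.213) and -2.39 for Col4a2 (0.168). Without Myc_Utx 2B they were -6.75 (0.0812) and -5.67 (0.0849).

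Tenm4 and Flrt2 belong to families of surface proteins that bind latrophilins, and neither passed. Tenm4, a teneurin, had 55, 82 and 137 counts in Myc_Utx 2A, 2B and 2D and 34, 7 and 36 in Myc_p53 1, 2 and 3 (log2 fold change 2.25, adjusted p = 0.0568). Flrt2 had 1, 9 and 8 counts against 29, 45 and 51 (log2 fold change -2.44, adjusted p = 0.0545). The groups did not overlap for either gene, and the directions were opposite. With DESeq2 both passed (adjusted p = 0.00439 for Tenm4 and 0.0130 for Flrt2), and with no filter on low counts Tenm4 did (0.0429) and Flrt2 did not (0.0613). Neither passed in any fit without 1 line. The log2 fold changes there ran from 1.75 (without Myc_Utx 2D) to 2.54 (without 2A) for Tenm4. For Flrt2 they ran from -2.78 (without 2D) to -1.93 (without 2A). The 6 ligands and partners described beside Tgm2 were singled out after their values were seen.

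The list of 32 G proteins and effectors that carry receptor signals was read in the same way. Of 30 tested, 2 were higher and 2 lower in Myc_Utx lines and 26 did not pass, or 6.67% in each direction beside 6.99% and 7.69% of all tested genes, which is the background share. The median log2 fold change was -0.18 for this list and -0.35 for the ligands, against -0.01 over all tested genes. Gna11, a Gq-family alpha subunit, had 147 ± 3.17 CPM (SD, n = 3) in Myc_Utx and 80.0 ± 12.5 CPM (SD, n = 3) in Myc_p53 lines, a log2 fold change of 0.88 (SE 0.14, adjusted p = 0.0186).

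The other 3 genes past the threshold are the RhoA exchange factors that G12/13 activates. Arhgef1 was higher, at 171 ± 3.13 against 97.4 ± 14.3 CPM (SD, n = 3 each), with a log2 fold change of 0.81 (adjusted p = 0.0189). Arhgef11 was lower, at 40.5 ± 4.21 against 63.2 ± 4.65 CPM (log2 fold change -0.64, adjusted p = 0.0356), and so was Arhgef12, at 147 ± 17.8 against 245 ± 48.7 CPM (-0.74, adjusted p = 0.0412). Thus the members of this small group moved in both directions. With offsets for transcript length, Arhgef11 (adjusted p = 0.0768) and Arhgef12 (adjusted p = 0.105) no longer passed, while Gna11 and Arhgef1 did. Arhgef11 did not pass with no filter on low counts either (log2 fold change -0.61, adjusted p = 0.0715). RhoA itself had a log2 fold change of -0.06 (95% interval -0.33 to 0.21, adjusted p = 0.727), and the alpha subunits Gna12 (-0.19, adjusted p = 0.533) and Gna13 (-0.30, adjusted p = 0.137) did not pass either. All 4 calls were lost without any single Myc_Utx line and without Myc_p53 replicate 3, with adjusted p from 0.0530 for Gna11 without replicate 3 to 0.137 for Arhgef12 without Myc_Utx 2D, and those of Arhgef11 and Arhgef12 also without Myc_p53 replicate 1 (0.0695 for both).

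**Figure D4:**
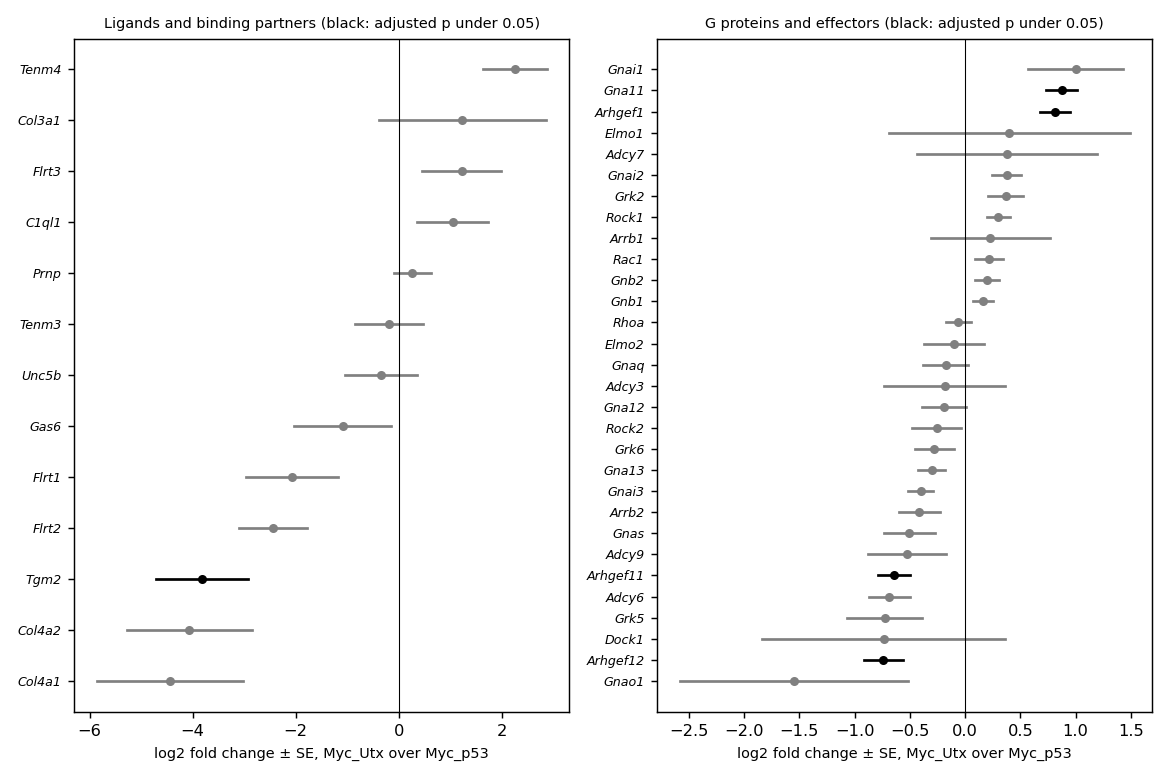
Log2 fold changes (Myc_Utx over Myc_p53, edgeR) with standard errors of the 13 tested ligands and partners (left) and the 30 tested G proteins and effectors (right), black where the adjusted p is under 0.05. Tgm2 is the single black point on the left, and Gna11, Arhgef1, Arhgef11 and Arhgef12 are black on the right.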

How the data were processed

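Total RNA of 6 tumour-derived mouse cell lines was sequenced. The deposited table holds raw counts per Ensembl gene, with gene coordinates and a transcript length in bases. The submitters' processing notes name Trimmomatic 0.36, STAR 2.5.3a, featureCounts 1.6.3, DESeq2 1.20.0 and the build GRCm38 (mm10), whereas the study's methods name a human build, HTSeq and guides against Mll3. The labels were followed here. Coordinates equalled GENCODE M21 for 96.36% of genes. The strand setting of the counting is not given in the sources used here.

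The counts were fitted with edgeR 4.0.16 (R 4.3.3), using filterByExpr (minimum count 10), TMM factors and quasi-likelihood F tests, and p-values were adjusted after Benjamini-Hochberg over 11510 genes, with a threshold of 0.05. The coefficient of variation between lines of a group was 33.4%, from edgeR's common dispersion. Standard errors came from the F statistic. Genes with at most 3 counts in every line of a group are given by their counts, and pooled ratios have exact Clopper-Pearson intervals (95%). Transcript length offsets used natural splines with 5 degrees of freedom. The procedure was tested on simulated data. Alternatives were DESeq2 1.42.0, no filter, at least 10 counts in every line, DESeq2 size factors, total counts, length offsets, a fold change beyond 2, unadjusted p and leaving out each line. Promoter windows were taken from RefSeq (GRCm38.p6).

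Every gene of the family is named. Family genes past the threshold, those whose groups do not overlap with more than 3 counts in every line of one group, and untested ones with at least 10 counts in total are given line by line. Every pathway gene past the threshold is named, Tgm2 with counts and the G proteins and effectors with group means. Some pathway genes that did not pass are described as well. The gene family and the lists were chosen with earlier results of these data known.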

Additional observations from a re-analysis of the deposited data

How the results depend on the processing

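The number of adhesion GPCR genes lower in Myc_Utx lines, 5, was 0 when at least 10 counts were required in every line, which leaves 5 members and none of the lower ones in the test, and 0 to 6 when 1 line was left out. The number higher, 1, was 0 with at least 10 counts in every line, with DESeq2 size factors, with total counts and with a fold change beyond 2, was 2 with transcript length offsets, DESeq2 or unadjusted p, and was 0 to 0 when 1 line was left out. Members whose groups did not overlap numbered 8, and 2 with at least 10 counts in every line. Ligands and partners past the threshold numbered 1, and 4 with no filter, 4 with DESeq2, 5 with unadjusted p and 0 to 2 without 1 line. G proteins and effectors numbered 4, and 2 with length offsets, 0 with a fold change beyond 2, 9 with unadjusted p and 0 to 5 without 1 line. Over the whole table, 4026 of 11510 genes had an unadjusted edgeR p under 0.05. DESeq2 called 1277 higher and 1572 lower of 24221 genes, and edgeR with no filter 695 and 907 of 24221. Leaving out any line but Myc_p53 replicate 2 also reduced the calls over the whole table, from 805 higher and 885 lower to as few as 3 and 1 (without Myc_Utx 2A), and leaving out that replicate raised them to 836 and 1118. The direction of Adgrl2 turned with length offsets (log2 fold change 0.084) and ranged from -0.40 to 0.24 when 1 line was left out (0.24 without Myc_p53 replicate 2), and no other tested member changed direction in any fit run here. Settings that kept all 6 lines and tested them (no filter, DESeq2 size factors, total counts, length offsets and DESeq2) kept the calls of Adgrg2, Adgre5, Adgrv1 and Adgrg1, and fits without single lines lost them as given for each gene. The cause of these changes was not tested, except that a filter on every line removes genes near 0.

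Log2 fold changes fell with transcript length over the tested genes (Spearman's rho -0.249, across 11510 genes, which are not independent), and the tested members are long, with a median of 8587 against 4441 bases. No paired analysis was possible because the lines of both genotypes carry no shared replicate numbers. Depth limits the 16 members that were not tested, and a count of 0 does not show that a gene is absent.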
